A study of Mus musculus with 39 samples.

Results

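Macrophages are the resident phagocytes of most tissues, and these 10 genes are used to recognise them: Cd68, Adgre1, Csf1r, Cd163, Mrc1, Lyz2, Cx3cr1, Cd14, Marco and Lyve1. They were chosen by symbol and read in every library through their Ensembl identifiers. All 10 were among the 21561 Ensembl genes that both count tables of the series list, and Adgre1 carries its older symbol Emr1 in one of them. The RNA-seq data hold 39 libraries in 13 groups of 3 biological replicates from male mice on the C57BL/6J background. WT mice, INSL3-KI mice, in which the cetacean INSL3 coding sequence replaces that of mouse Insl3 at its own locus under the mouse regulatory elements, and INSL3-KO mice, which lack the gene, were compared to follow the tissues around testicular descent. The gubernaculum, the ligament that guides the testis, was taken at postnatal day 8 (P8) from all 3 genotypes and at P23 from WT and INSL3-KI mice. Testis was taken at P8 and P23 from all 3 genotypes and at P40 from WT and INSL3-KI mice. INSL3-KI mice were homozygous and carried the exchange in every cell, with the selection cassette removed by Cre, and no treatment was given.

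Macrophages depend on signals through the CSF1 receptor, which is encoded by Csf1r and binds the ligands CSF1 and IL-34, and their gene program is built on the transcription factor PU.1, encoded by Spi1. Testis holds macrophages in the interstitium beside the Leydig cells and around the seminiferous tubules, whereas germ cells and Sertoli cells fill the tubules. The members have different roles. Adgre1 encodes the surface protein F4/80, Cd68 encodes a lysosomal glycoprotein and Lyz2 encodes lysozyme M. Mrc1 (the mannose receptor), Cd163 (the haemoglobin-haptoglobin receptor) and Lyve1 (a hyaluronan receptor) are associated with resident macrophages, Marco encodes a scavenger receptor, Cd14 a co-receptor for lipopolysaccharide and Cx3cr1 the receptor for fractalkine. Lyve1 is also a marker of lymphatic endothelium, and Lyz2 of neutrophils.

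Promoter sequence from RefSeq (GRCm38.p6) was at hand for Cd68, Cd163, Mrc1, Lyz2, Cx3cr1 and Marco. Because PU.1 is central to this cell type, the 250 bases before the start of each of these 6 genes were searched on both strands for its core letters GAGGAA, and 3 of the 6 held them (Cd68, Mrc1 and Marco), against 23.25% of the 32851 promoters of that length. The C/EBP-like letters TTGCNNAA were found in 1 of the 6 (Cd68) and in 9.56% of all promoters, and the MAF half-site TGCTGAC in 0 of the 6 and in 3.81%. The 3 promoters with GAGGAA are printed 5′ to 3′ up to the base before the start, with the match in capitals (TTCCTC where it lies on the other strand). They are chr11:69666171-69666420 (minus strand) for Cd68, chr2:14229164-14229413 (plus strand) for Mrc1 and chr1:120505025-120505274 (minus strand) for Marco.
Cd68: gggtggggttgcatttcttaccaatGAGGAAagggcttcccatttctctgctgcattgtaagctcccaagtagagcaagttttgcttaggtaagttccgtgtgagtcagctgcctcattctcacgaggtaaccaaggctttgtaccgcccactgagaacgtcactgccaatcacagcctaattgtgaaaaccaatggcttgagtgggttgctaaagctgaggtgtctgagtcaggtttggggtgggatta
Mrc1: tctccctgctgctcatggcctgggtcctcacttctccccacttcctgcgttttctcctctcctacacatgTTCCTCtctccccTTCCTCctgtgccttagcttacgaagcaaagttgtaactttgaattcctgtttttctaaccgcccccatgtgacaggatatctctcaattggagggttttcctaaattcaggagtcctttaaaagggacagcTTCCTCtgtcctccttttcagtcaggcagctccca
Marco: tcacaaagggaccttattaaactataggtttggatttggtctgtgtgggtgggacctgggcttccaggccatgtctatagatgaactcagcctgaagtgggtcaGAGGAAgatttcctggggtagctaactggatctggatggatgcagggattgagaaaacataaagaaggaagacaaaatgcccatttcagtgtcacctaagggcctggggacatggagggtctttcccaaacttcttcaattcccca
Mrc1 holds 3 matches, and Cd68 and Marco hold 1 each. A match describes the letters only.

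In the GENCODE annotation of GRCm38, the build that the submitters' notes name, all 10 are protein-coding genes: Cd68 at chr11:69664213-69666153, Adgre1 at chr17:57358691-57483527, Csf1r at chr18:61100598-61132149, Cd163 at chr6:124304656-124330527, Mrc1 at chr2:14229392-14332057, Lyz2 at chr10:117277331-117282321, Cx3cr1 at chr9:119901616-120069879, Cd14 at chr18:36725067-36726798, Marco at chr1:120474538-120505024 and Lyve1 at chr7:110850607-110863239.

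The libraries held between 29861447 and 45260372 counts. Mouse Insl3 had 2722 to 29799 counts in WT testis, 15 to 511 in INSL3-KI testis and 0 to 5 in INSL3-KO testis at P23, but 613 to 906 counts in the P8 testis libraries labelled INSL3-KO, against 2722 to 3524 in WT testis of that age, so those 3 libraries are named here by their label. WT and INSL3-KI libraries other than WT testis at P23 lie in a first count table of 27 libraries, and the other 12, from INSL3-KO mice and P23 WT testis, in a second. A comparison across the tables cannot tell table from genotype apart. The summed level of the 10 genes varied little within the groups of the second table, with a highest library 1.02 to 1.07 times the lowest, and by 1.17 to 4.5 times in the groups of the first. INSL3-KI gubernaculum at P23 was the widest group, and WT testis at P8 contained 1 library (replicate 3) with 198.9 CPM against 87.1 and 103.3 CPM in the others.

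Levels are given as CPM, counts relative to library size, scaled over all 39 libraries by TMM, so that they compare libraries but not genes. Summed over the 10 genes, the group means were ordered from INSL3-KO testis at P23 (981.1 CPM) through INSL3-KI testis at P40 (510.5), WT gubernaculum at P8 (506.2), INSL3-KO gubernaculum at P8 (488.6), WT gubernaculum at P23 (451.3), INSL3-KI gubernaculum at P23 (358.1), INSL3-KI testis at P23 (256.1), INSL3-KI gubernaculum at P8 (242.6), WT testis at P23 (168.7), P8 testis labelled INSL3-KO (140.8), WT testis at P40 (139.0) and WT testis at P8 (129.8) to INSL3-KI testis at P8 (122.9). The 3 INSL3-KO testis libraries at P23 (971 to 991.8 CPM) lay above every other library, of which the highest had 700.1 CPM. Most neighbours in this order overlapped in their libraries. The exceptions were INSL3-KO testis at P23 above INSL3-KI testis at P40, INSL3-KI gubernaculum at P8 above WT testis at P23, and WT testis at P23 above the P8 testis labelled INSL3-KO. Compared per length by the deposited FPKM, Lyz2 had the highest mean of the 10 genes in all 13 groups, from 18.5 FPKM in WT testis at P40 to 393.7 FPKM in INSL3-KO testis at P23. Marco had the lowest in all 13, from 0.02 to 1.33 FPKM.

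**Figure D1:**
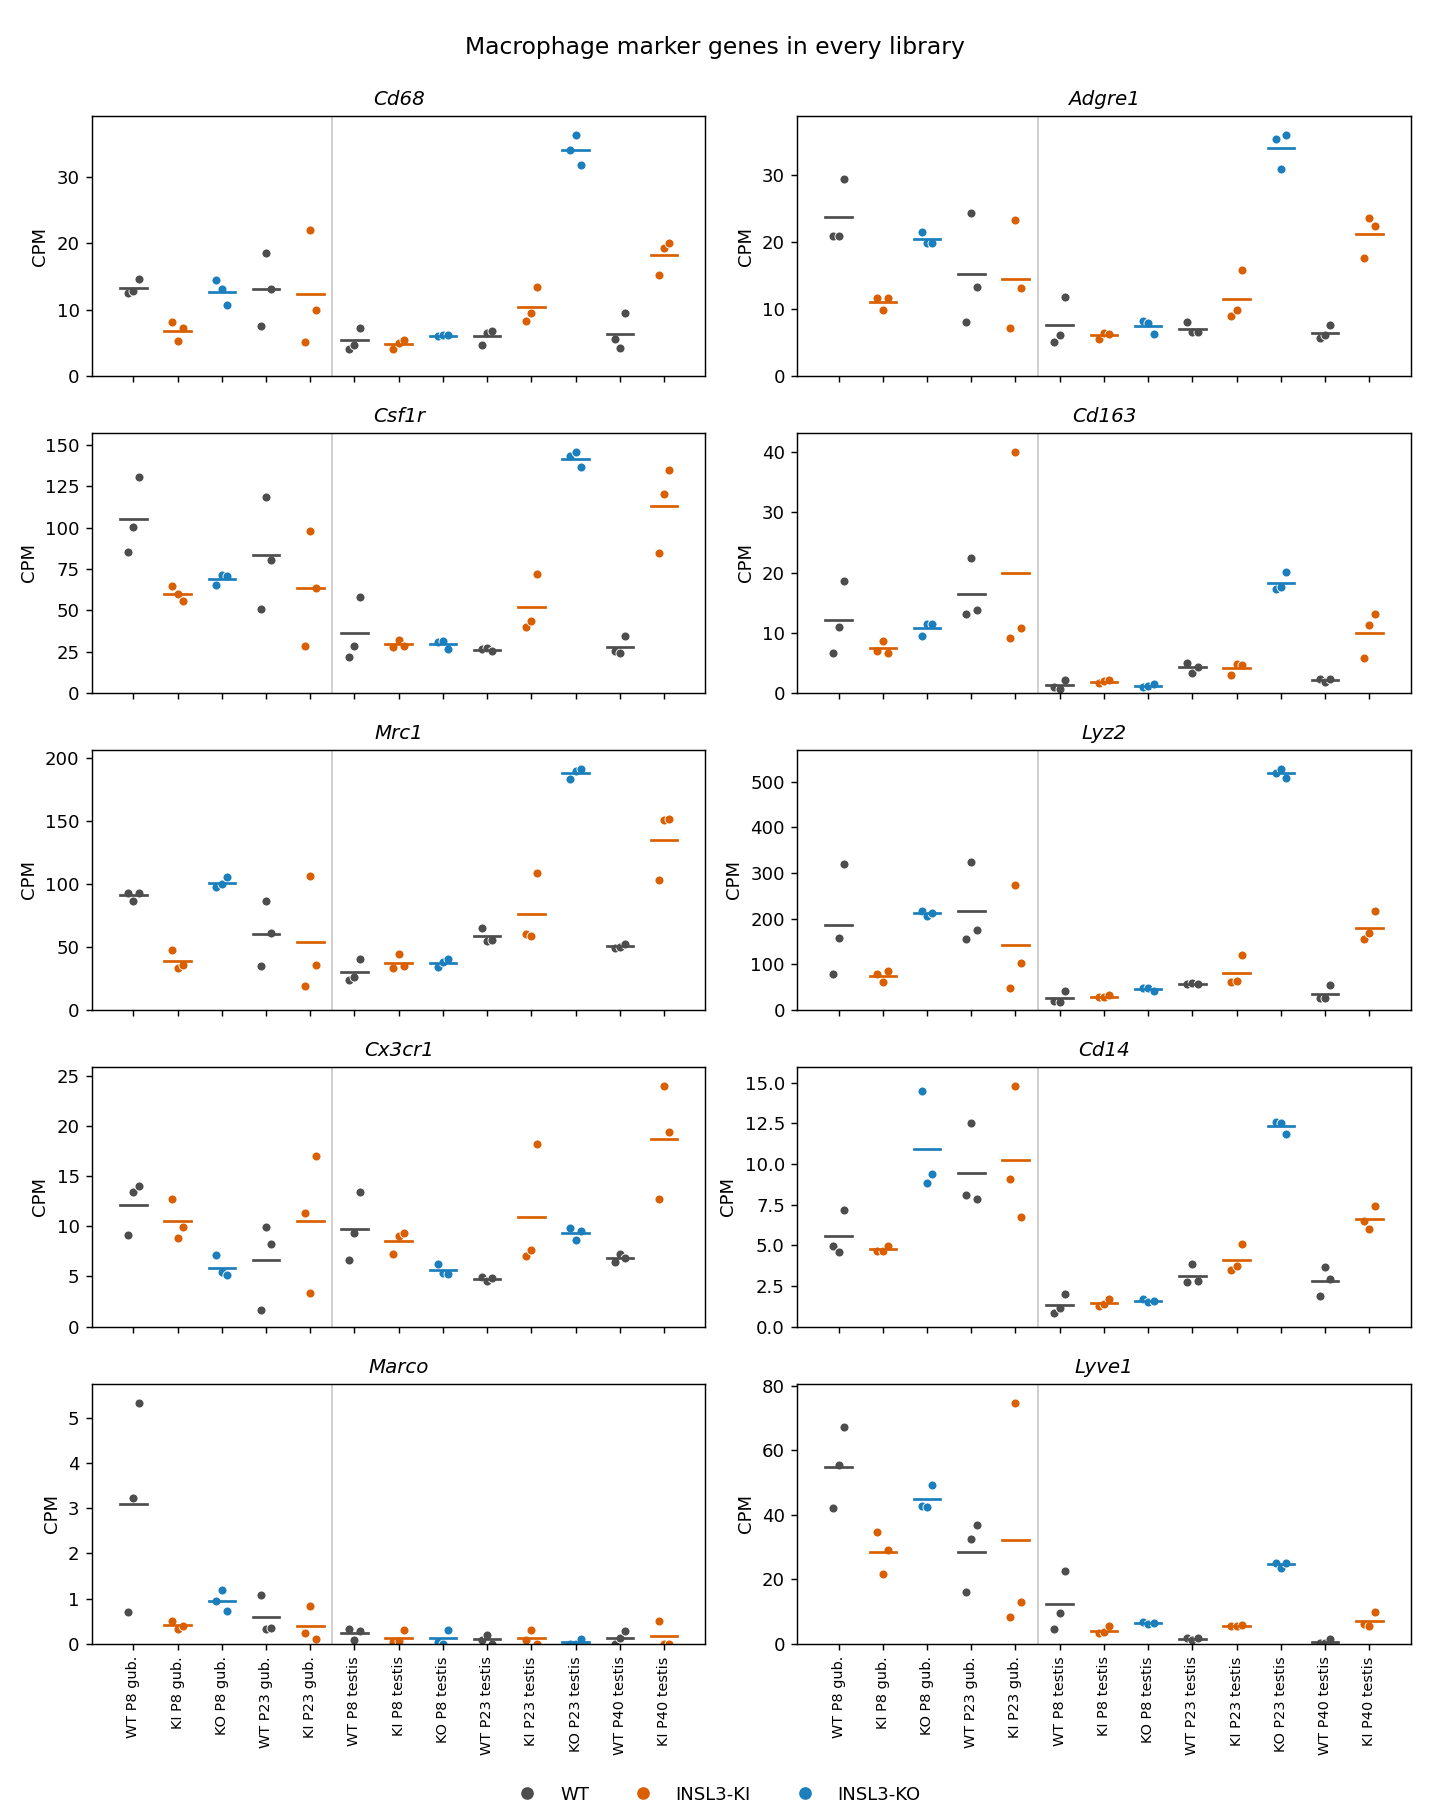
Level of each gene (vertical axis, CPM from 0, a scale of its own for each gene) in the 13 groups (horizontal axis, gubernaculum left and testis right of the grey line). Points are libraries and bars are group means of 3, with WT in grey, INSL3-KI in orange and INSL3-KO in blue, and the INSL3-KO testis at P23 has the highest mean for 6 of the 10 genes.

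The WT tissues were compared first, at P8, where both lie in one table. Macrophage markers were higher in gubernaculum than in testis. Mrc1 stood at 93.1, 86.7 and 92.5 CPM in gubernaculum against 23.6, 26.4 and 40.0 CPM in testis. Lyz2 stood at 78.0, 156 and 320 CPM against 19.6, 17.2 and 40.9 CPM, and Cd163 at 6.65, 11 and 18.6 CPM against 0.974, 0.708 and 2.20 CPM. All 3 gubernaculum libraries lay above all 3 testis libraries for these genes, although Lyz2 and Cd163 differed among the gubernaculum libraries by more than 2-fold. By edgeR's quasi-likelihood test, with genes called where the fold change reached 2 and the adjusted p was below 0.01, 9 of 10 members were higher in gubernaculum, where 14.1% of all genes were called higher, with a median log2 difference of 1.86 against 0.00 over all genes. Marco had the largest value (log2 difference 3.78, SE 0.84, adjusted p = 0.0064), with 22 to 162 counts against 4 to 13. It passed the filter on low counts only through its gubernaculum libraries, so its call adds no support. Cd163 followed (3.23, SE 0.55, adjusted p = 0.0018). The 1 member not called was Cx3cr1, at 9.10, 13.4 and 14 CPM in gubernaculum and 6.60, 9.29 and 13.4 CPM in testis (log2 difference 0.33, SE 0.29, adjusted p = 0.36). Of the other macrophage lists, core phagocyte genes had 12 of 20 higher and resident macrophage genes 7 of 10, while of the MHC class II genes, which present antigen, 1 of 7 was higher. The count of 9 fell to 2 without WT testis replicate 2, to 3 without WT gubernaculum replicate 2 or 3 and to 5 without WT testis replicate 1, and it was 5 with limma and with library size as the only scaling. In such bulk tissue, fewer macrophages and less RNA per macrophage cannot be told apart.

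In INSL3-KO testis at P23, macrophage markers were higher than in WT testis of the same table on the TMM scale, but Cd163, Mrc1, Cx3cr1 and Cd14 had a negative value when libraries were scaled to Sertoli cell genes. Csf1r stood at 143, 146 and 137 CPM in INSL3-KO and at 26.4, 26.9 and 25.4 CPM in WT testis. Lyz2 stood at 519, 527 and 509 CPM against 57.5, 57.8 and 56.1 CPM, and Lyve1 at 25.2, 23.5 and 25.1 CPM against 1.75, 1.18 and 1.68 CPM. The replicates lay close together and the groups were far apart for each of the 3 genes. With edgeR, 8 of 9 members tested rose, where 31.1% of all genes were called higher. Their median log2 fold change was 2.27 against 0.06 over all genes. With libraries scaled to an equal sum of counts over 15 Sertoli cell genes (Sertoli scaling), the median was 0.10. By that scaling 3 were called, 2 higher and 1 lower, where 69.7% of all genes were called in either direction. It follows the RNA of these genes, not a number of cells.

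By role, the pan-macrophage genes Adgre1 and Cd68 rose 4.81-fold and 5.65-fold, and Csf1r 5.39-fold (log2 fold change 2.43, SE 0.058, adjusted p = 6.9e-11). The secreted enzyme gene Lyz2 rose 9.05-fold (3.18, SE 0.044, adjusted p = 1.6e-12). Among genes of resident macrophages, Lyve1 rose 15.9-fold (4.0, SE 0.15, adjusted p = 2.3e-09), Cd163 4.32-fold and Mrc1 3.21-fold, and the co-receptor gene Cd14 rose 3.91-fold. Cx3cr1 stood at 9.80, 8.63 and 9.57 CPM in INSL3-KO and at 4.93, 4.54 and 4.83 CPM in WT testis, without overlap, but its log2 fold change of 0.97 (SE 0.14, adjusted p = 7.8e-05) was below the 2-fold threshold. Marco was not tested, with at most 5 counts in a library of either group.

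Other genes of the lineage moved as well. Of the CSF1 receptor ligands and regulators, 9 of 11 rose (median 2.33), led by Maf (2.84) and Cebpb (2.80), transcription factors of the myeloid program. Spi1 rose (1.96, adjusted p = 6.3e-06) and the ligand gene Csf1 (2.53, adjusted p = 3.6e-09). Of the core phagocyte genes, 17 of 20 rose, led by the complement gene C1qa (3.04) and the Fc receptor gene Fcgr1 (3.02), and Aif1 fell by 5.90 on the log2 scale. Of the resident macrophage genes, 10 of 12 rose, led by Ccl24 (4.11) and Folr2 (3.30), and of the MHC class II genes 4 of 6 rose, led by H2-Aa (2.82) and Cd74 (2.79). The monocyte list split, with 2 genes higher, Ly6c2 (3.12) and Ccr2 (2.69), and 3 lower, and of the T cell genes 0 of 5 rose and 2 fell. Of the 8 other lymphatic endothelial genes, 2 rose, Pdpn (3.06) and Fgl2 (2.58), and 2 fell, Prox1 (-3.68) and Flt4 (-2.21), with a median of 0.93.

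Markers of other testis cells moved with these genes. Germ cell genes fell (10 of 12, median -7.89), with a summed level of 418.9 to 468.2 CPM in INSL3-KO against 14510 to 16500 CPM in WT testis. The share of all genes called lower is not given here. Sertoli cell genes rose (14 of 15, median 2.65), from 1274 to 1297 CPM in WT to 5708 to 5808 CPM in INSL3-KO testis, and so did fibroblast genes (8 of 9, median 1.99). With Sertoli scaling, which lowers the median of all genes to -2.11, Lyz2 (1.02, adjusted p = 6.2e-09) and Lyve1 (1.83, adjusted p = 2.3e-06) remained higher in INSL3-KO testis. Cx3cr1 was lower (-1.20, adjusted p = 1.6e-05), and Cd163 (-0.050, SE 0.16), Mrc1 (-0.48, SE 0.075) and Cd14 (-0.19, SE 0.16) had a negative value. The part of the other cell types in the TMM result was not tested beyond this scaling.

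**Figure D2:**
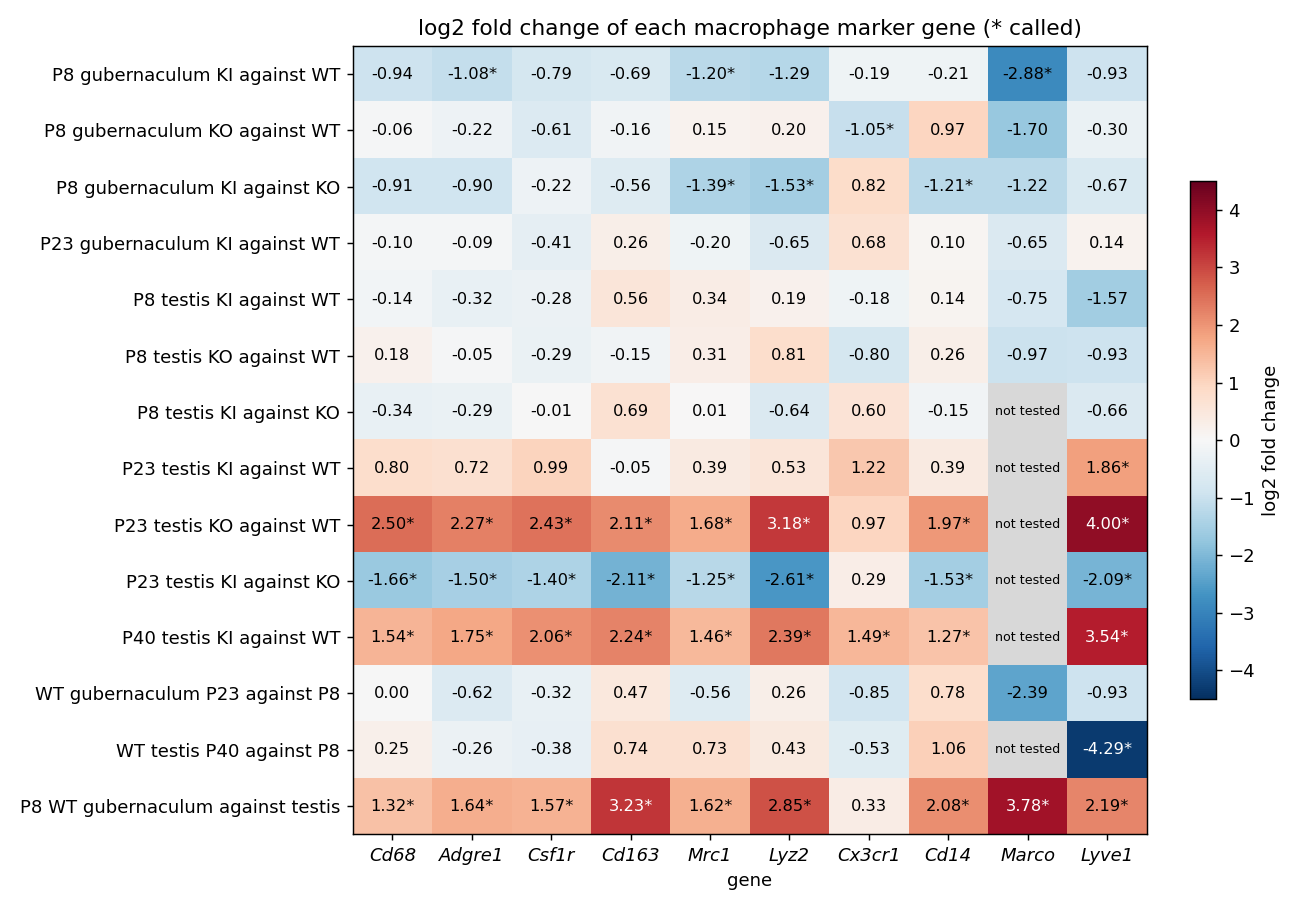
log2 fold change of each gene (columns) in each comparison of 2 groups (rows), red for higher and blue for lower in the group named first, with an asterisk where edgeR called the gene. By TMM, 8 of 9 members rose in P23 INSL3-KO testis (31.1% of all genes) and 9 of 9 in P40 INSL3-KI testis (25.6%). In P8 WT gubernaculum against testis 9 of 10 were higher (14.1%), and in P23 INSL3-KI against INSL3-KO testis 8 of 9 lower (13%). In P8 gubernaculum 3 of 10 fell for INSL3-KI against WT (9.70%), 1 for INSL3-KO against WT (15.2%) and 3 between the mutants (10.5%). In P23 INSL3-KI testis against WT 1 of 9 rose (8.81%), and in WT testis P40 against P8, 1 of 9 fell (27.8%). With Sertoli scaling 3 of 9 were called in P23 INSL3-KO testis, 0 in P40 INSL3-KI testis and 2 in P23 INSL3-KI against INSL3-KO testis. There 69.7%, 63.2% and 49.3% of all genes were called in either direction.

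In INSL3-KI testis at P40 these markers were higher than in WT testis of the same table on the TMM scale, but 5 of 9 had a negative value with Sertoli scaling. Csf1r stood at 84.5, 120 and 135 CPM in INSL3-KI and at 25.3, 24.0 and 34.7 CPM in WT testis. Lyz2 stood at 156, 168 and 216 CPM against 25.4, 26.4 and 53.9 CPM, and Cx3cr1 at 12.7, 24.0 and 19.4 CPM against 6.47, 7.21 and 6.84 CPM. No INSL3-KI library overlapped with a WT library for any of the 9 members tested, and the share of all genes without overlap was not counted. All 9 rose, where 25.6% of all genes were called higher, with a median log2 fold change of 1.75 against 0.09 over all genes. With Sertoli scaling, however, none was called, where 63.2% of all genes were, and the median was -0.16 (edgeR, 2 of 9 at an unadjusted p under 0.05). The sign changed for Cd68 (-0.36, SE 0.26), Adgre1 (-0.16, SE 0.12), Mrc1 (-0.47, SE 0.12), Cx3cr1 (-0.46, SE 0.16) and Cd14 (-0.63, SE 0.28).

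The folds ran from 2.41-fold for Cd14 (1.27, SE 0.27, adjusted p = 0.0056) through 4.15-fold for Csf1r (2.06, SE 0.25, adjusted p = 0.00071) and 5.24-fold for Lyz2 (2.39, SE 0.36, adjusted p = 0.0015) to Lyve1. Lyve1 had 251, 219 and 411 counts in INSL3-KI testis and 4, 5 and 45 counts in WT testis, and its log2 fold change of 3.54 had the widest error of the 9 (SE 0.81, adjusted p = 0.0077). Marco, with at most 20 counts in a library, was not tested. Without WT replicate 1 or without WT replicate 2, 5 of the 9 were called.

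Other genes of the lineage were also called. Of the CSF1 receptor ligands and regulators 8 of 11 rose (median 1.70), led by Csf1 (2.57) and the transcription factor gene Zeb2 (2.30), and of the core phagocyte genes 14 of 20, led by Fcer1g (2.66) and C1qa (2.49), while Aif1 fell by 6.01 on the log2 scale. Of the resident macrophage genes 6 of 12 rose, led by Timd4 (2.68) and Cbr2 (2.58), and of the MHC class II genes 2 of 7, Cd74 (1.76) and H2-Aa (1.60). The chemokine receptor gene Ccr2 was the 1 monocyte gene that rose (3.42). Sertoli cell genes rose in 14 of 15 (median 2.29), with a summed level of 3452 to 4790 CPM against 1104 to 1245 CPM in WT testis, fibroblast genes rose in 4 of 9, and germ cell genes fell in 6 of 12 (405.8 to 1253 CPM against 8992 to 10880 CPM). For the genes that fell, the share of all genes called lower is not given here. The part of the Sertoli, fibroblast and germ cell genes in the TMM result was not tested beyond the Sertoli scaling.

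**Figure D3:**
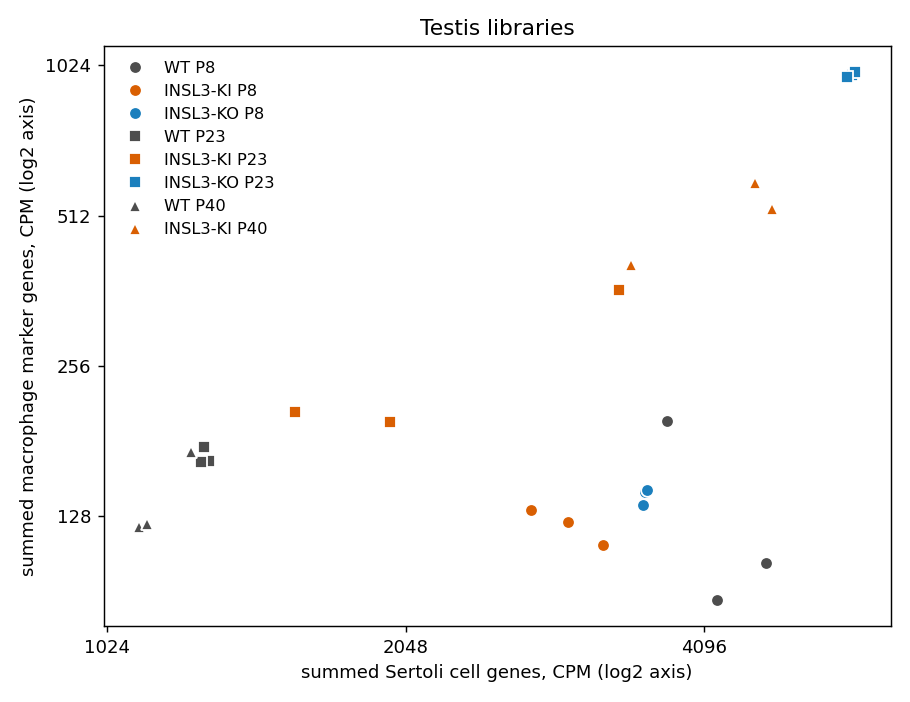
Summed level of the 10 macrophage markers (vertical axis) against that of 15 Sertoli cell genes (horizontal axis), both in CPM on log2 axes, with a point for each testis library, colour for genotype and shape for age. P23 INSL3-KO and P40 INSL3-KI libraries lie high on both axes, WT libraries at P23 and P40 low on both, and P8 libraries high in Sertoli cell genes and low in macrophage markers.

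**Figure D4:**
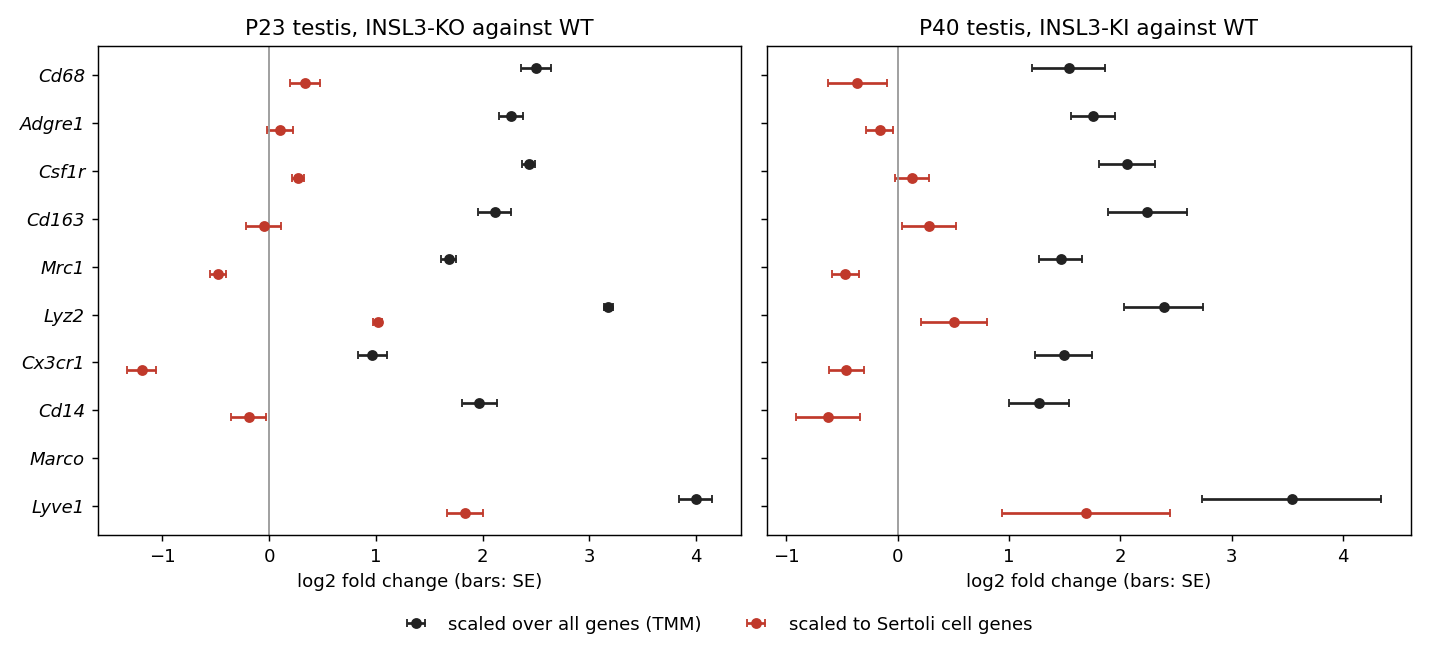
log2 fold change (horizontal axis, bars are SE) of each gene in P23 INSL3-KO testis (left) and P40 INSL3-KI testis (right) against WT, with libraries scaled by TMM (black) or to an equal sum of Sertoli cell gene counts (red). The black points lie between 0.97 and 4.0 and the red points between -1.20 and 1.83, on both sides of 0, and Marco, which was not tested, has no point.

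The INSL3-KI effect in testis was larger at P40 than at P8 for 6 members on the TMM scale, but with Sertoli scaling none of the 6 was called and 5 of these differences had a negative value. At P8, Csf1r stood at 27.8, 32.2 and 28.1 CPM in INSL3-KI and at 21.6, 28.1 and 58.3 CPM in WT testis, and Lyz2 at 28.4, 27.7 and 31.3 CPM against 19.6, 17.2 and 40.9 CPM, in both cases inside the WT range. With edgeR 0 of 10 members were called between INSL3-KI and WT testis at P8, where 6.29% of all genes were, 1 had an unadjusted p under 0.05 (Lyve1, -1.57, adjusted p = 0.075), and DESeq2 and limma called 0. The difference between the effects at P40 and at P8, tested as an interaction, was called for 6 of 10 members, all higher at P40, where 23.2% of all genes were called higher, with a median of 1.60 against -0.01 over all genes. These were Lyve1 (5.045, SE 1.1), Csf1r (2.26, SE 0.48), Lyz2 (2.13, SE 0.52), Adgre1 (2.0, SE 0.42), Cd68 (1.60, SE 0.45) and Cx3cr1 (1.60, SE 0.41), with adjusted p between 0.002 and 0.0094. Sertoli scaling was added to this test after the data were seen. With it the differences were -0.68 for Cd68 (SE 0.45), -0.28 for Adgre1 (SE 0.46), -0.033 for Csf1r (SE 0.50), -0.11 for Lyz2 (SE 0.54) and -0.75 for Cx3cr1 (SE 0.41). By edgeR each of these had an adjusted p of 0.12 or more, and Lyve1 kept a positive difference (2.86, SE 1.1, adjusted p = 0.034). The 1 member called by edgeR with that scaling was Mrc1, lower at P40 (-1.27, SE 0.36, adjusted p = 0.0077), where 63.7% of all genes were called in either direction and their median was -2.31. The WT testis at P8 includes the library with high markers (replicate 3), which also had 21010 CPM of fibroblast genes against 6901 and 11210 CPM. Between 3 and 7 members were called when 1 library was left out, with 3 without INSL3-KI replicate 1 or 2 at P8, WT replicate 1 at P40 or INSL3-KI replicate 3 at P40.

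The P8 testis libraries labelled INSL3-KO had no member called against either other group. With edgeR 0 of 10 members were called against WT testis, where 13.8% of all genes were, and 2 had an unadjusted p under 0.05, Cx3cr1 (-0.80, adjusted p = 0.035) and Lyz2 (0.81, adjusted p = 0.064), with 0 called by DESeq2 and by limma. Without WT replicate 1 or 3 the count was 1. Cx3cr1 stood at 6.29, 5.34 and 5.27 CPM, below the WT libraries at 6.60, 9.29 and 13.4 CPM. In INSL3-KI testis against the same libraries 0 of 9 members were called, where 3.92% of all genes were. Of these 9, 4 had an unadjusted p under 0.05, among them Lyz2 (-0.64, adjusted p = 0.0035) below the fold threshold, and DESeq2 and limma called 0. Both comparisons are across the tables.

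At P23, 1 of 9 members, Lyve1, was called higher in INSL3-KI than in WT testis on the TMM scale, across the tables, where 8.81% of all genes were. With Sertoli scaling 0 of 9 were called. In CPM, Cd68, Adgre1, Csf1r, Lyz2 and Lyve1 lay between WT and INSL3-KO testis without overlap, also across the tables. The share of all genes in that order was not counted. Against WT, Adgre1 (-0.09, SE 0.21) and Lyz2 (-0.32, SE 0.21) had a negative value with Sertoli scaling. Csf1r stood at 39.7, 43.4 and 72.2 CPM in INSL3-KI testis, above the WT range of 25.4 to 26.9 CPM and below the INSL3-KO range. Lyve1 stood at 5.43, 5.56 and 5.76 CPM and was the 1 member of 9 called against WT (1.86, SE 0.25, adjusted p = 0.0026), where 8.81% of all genes were called higher, although with Sertoli scaling 0 of 9 were called, where 3.95% of all genes were (edgeR, 1 at an unadjusted p under 0.05). It was not called without INSL3-KI replicate 1 or without any 1 of the WT libraries, which leaves 0 calls. The median of the members was 0.72 by TMM, against 0.08 over all genes, and -0.09 with Sertoli scaling. INSL3-KI replicate 3 was the highest library of its group for 8 of the 10 members, with a summed level of 363.2 CPM against 197.8 and 207.2 CPM, and also had the highest Sertoli level, 3360 CPM against 1583 and 1973 CPM. Against INSL3-KO testis 8 of 9 members were lower on the TMM scale (Mrc1 had a value of 0.030 with Sertoli scaling), where 13% of all genes were called lower, with a median of -1.53 against 0.02 over all genes. Lyz2 was lowest (-2.61, SE 0.30, adjusted p = 0.00053), and Cx3cr1 at 7.01, 7.59 and 18.2 CPM was not called (0.29, SE 0.40, adjusted p = 0.55). With Sertoli scaling, 2 were called, where 49.3% of all genes were, Lyz2 lower (-1.33, adjusted p = 0.0028) and Cx3cr1 higher (1.5, adjusted p = 0.0029). By TMM 5 members were called without INSL3-KI replicate 1, or without any 1 of the INSL3-KO libraries. The MHC class II genes, which rose in INSL3-KO testis, had 0 of 6 higher and 2 of 6 lower in INSL3-KI testis against WT, where the share of all genes called lower is not given here.

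With age, the markers in WT testis gave different results on the TMM scale and with Sertoli scaling. By TMM, between P8 and P40, 1 of 9 members was called, Lyve1, at 4.43, 9.51 and 22.6 CPM at P8 and 0.166, 0.188 and 1.44 CPM at P40 (-4.29, SE 0.93, adjusted p = 0.0032), where 27.8% of all genes were called lower. Without WT replicate 1 or 2 at P40 it was not called. Mrc1 was higher at P40 but below the fold threshold (0.73, SE 0.20, adjusted p = 0.009). Over the same interval the summed Sertoli level went from 3753 to 4722 CPM down to 1104 to 1245 CPM and that of germ cells from 350 to 657.5 CPM up to 8992 to 10880 CPM. With Sertoli scaling, 8 of 9 members were higher at P40, where 62.8% of all genes were called higher and the median of all genes was 1.84, near that of the members (2.07). They were led by Cd14 (2.90, SE 0.49) and Mrc1 (2.58, SE 0.25).

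In INSL3-KI gubernaculum at P8, 3 of 10 markers were called lower than in WT gubernaculum of the same table, where 9.70% of all genes were. None was called with library size as the only scaling, with limma or with all gubernaculum groups in 1 fit. Mrc1 stood at 47.6, 33.5 and 35.7 CPM in INSL3-KI and at 93.1, 86.7 and 92.5 CPM in WT. Adgre1 stood at 11.7, 9.90 and 11.7 CPM against 21.0, 20.9 and 29.4 CPM, and Marco at 0.507, 0.326 and 0.395 CPM against 0.710, 3.24 and 5.34 CPM. The groups did not overlap for these 3 genes, nor for Cd68, Csf1r and Lyve1, and the share of all genes without overlap was not counted. With edgeR 3 of 10 members fell, where 9.70% of all genes were called lower, with a median of -0.93 against 0.02 over all genes. They were Mrc1 (-1.20, SE 0.14, adjusted p = 0.00017), Adgre1 (-1.08, SE 0.17, adjusted p = 0.0011) and Marco (-2.88, SE 0.70, adjusted p = 0.0089), which had 11 to 19 counts in INSL3-KI libraries. Cd68 (-0.94), Csf1r (-0.79) and Lyve1 (-0.93) had an adjusted p between 0.0028 and 0.0062 but changed by less than 2-fold. Cx3cr1 (-0.19, adjusted p = 0.49) and Cd14 (-0.21, adjusted p = 0.48) overlapped between the groups. None was called with library size as the only scaling, which raises the median of all genes to 0.34, with limma or with all gubernaculum groups in 1 fit (7 at an unadjusted p under 0.05 in the main edgeR test), and 1 was called without WT replicate 3 and 5 without WT replicate 1.

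Other lists moved in both directions there. Of the core phagocyte genes 7 of 20 fell, led by C1qc (-1.24) and C1qa (-1.22), and of the resident macrophage genes 4 of 11 fell, led by Timd4 (-2.69) and Pf4 (-1.77), whereas Cbr2 rose (1.77). The MHC class II genes rose (5 of 7, median 2.47), led by Cd74 (3.17) and H2-Aa (2.85). Among regulators of the lineage, Spi1 (-1.25) and Runx1 (-2.48) fell, and Nr1h3 (2.61) and Cebpa (2.55), which adipocytes also express, rose. Mast cell genes fell in 6 of 6 (median -3.20), muscle genes in 11 of 12, with a summed level of 1348 to 2174 CPM against 44450 to 49550 CPM in WT, and fibroblast genes in 3 of 9, while adipocyte genes rose in 8 of 8 (1180 to 1528 CPM against 105.7 to 121.5 CPM). For the genes that rose, the share of all genes called higher is not given here. Epididymal genes were at 651.6 to 1647 CPM in INSL3-KI and 0.561 to 0.775 CPM in WT gubernaculum. The part of these tissues in the marker result was not tested.

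Across the tables, INSL3-KO gubernaculum at P8 was called different from WT in 1 of 10 members, where 15.2% of all genes were called lower. Cx3cr1 stood at 7.11, 5.4 and 5.13 CPM against 9.10, 13.4 and 14 CPM (-1.05, SE 0.22, adjusted p = 0.0043) and overlapped with none of the WT libraries. It was not called with all gubernaculum groups in 1 fit or with limma, and without WT replicate 2 or 3 or without INSL3-KO replicate 2 or 3 the count was 0, and without WT replicate 1 it was 2. Cd14 was higher without overlap, at 14.5, 8.84 and 9.38 CPM against 4.97, 4.61 and 7.16 CPM, and missed the call (0.97, SE 0.26, adjusted p = 0.014). Csf1r was lower without overlap, at 65.2, 71.3 and 70.8 CPM against 85.4, 100 and 131 CPM, but below the fold threshold (-0.61, SE 0.15, adjusted p = 0.0081). Adgre1 (-0.22), Cd68 (-0.06), Mrc1 (0.15) and Lyz2 (0.20) had an adjusted p of 0.078 or more. MHC class II genes rose in 5 of 7, led by H2-Aa (2.78) and Cd74 (2.55), and neutrophil genes in 5 of 7, led by Retnlg (6.79) and Camp (4.76), although the latter summed to only 7.91 to 11.1 CPM. Hepatocyte genes, which this tissue should lack, were at 8516, 2606 and 188.4 CPM in the 3 INSL3-KO libraries and at 1.26 to 17.7 CPM in WT, and 7 of 8 rose. For these lists the share of all genes called higher is not given here, so the counts are not set against it. Muscle genes were at 8657 to 9381 CPM in INSL3-KO gubernaculum and epididymal genes at 1024 to 1150 CPM. The part of these cell types in the marker result was not tested.

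Between the mutants, INSL3-KI gubernaculum was lower than INSL3-KO gubernaculum in 3 of 10 members, where 10.5% of all genes were called lower (median -0.90 against -0.01 over all genes), across the tables. Lyz2 stood at 78.1, 59.9 and 84.5 CPM in INSL3-KI and at 217, 206 and 212 CPM in INSL3-KO (-1.53, SE 0.13, adjusted p = 7.8e-05), with no overlap. Mrc1 (-1.39, adjusted p = 0.00013) and Cd14 (-1.21, adjusted p = 0.0025) were the others. Cx3cr1 lay the other way without overlap, at 12.8, 8.87 and 9.92 CPM in INSL3-KI against 7.11, 5.4 and 5.13 CPM in INSL3-KO, and was not called (0.82, SE 0.20, adjusted p = 0.01). With all gubernaculum groups in 1 fit 1 member was called. The INSL3-KI effect at P8 differed between gubernaculum and testis for 1 of 10 members, Mrc1 (interaction -1.53, SE 0.28, adjusted p = 0.0013), where 8.92% of all genes were called lower, and for 3 without WT testis replicate 3.

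At P23 the gubernaculum groups were wide. Mrc1 stood at 19.3, 106 and 35.2 CPM in INSL3-KI and at 34.7, 86.0 and 60.9 CPM in WT, and Lyz2 at 48.0, 274 and 102 CPM against 155, 324 and 174 CPM. INSL3-KI replicate 2 was the highest of its group for 9 of the 10 members, all but Cx3cr1, and the genotypes overlapped for every gene. With edgeR 0 of 10 members were called, where 2.57% of all genes were, 0 had an unadjusted p under 0.05, and DESeq2 and limma called 0. Muscle genes, which mark the WT gubernaculum (64950 to 116500 CPM), were at 118.1 to 1757 CPM in the INSL3-KI libraries. These libraries also differed among themselves, with erythroid genes at 577.9, 6037 and 291.9 CPM and epididymal genes at 2296, 2.03 and 7406 CPM, and their part was not tested. The interaction with age was called for 0 of 10 members, where 0.281% of all genes were, with 0 at an unadjusted p under 0.05 and 0 by DESeq2 and limma. In WT gubernaculum, 0 of 10 members were called between P8 and P23, where 10.5% of all genes were, and 3 had an unadjusted p under 0.05 (Lyve1, Marco and Cd14), with 0 called by DESeq2 and by limma.

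Over the 13 group means on the log2 CPM scale, the members did not all share one pattern. With the mean of 9 standardised profiles (Marco, with a mean under 1 CPM, was left out), Adgre1 correlated most (Pearson's r = 0.986), followed by Csf1r (0.981), Lyz2 (0.956), Cd68 (0.951), Cd163 (0.894), Cd14 (0.887), Mrc1 (0.831), Lyve1 (0.692) and Cx3cr1 (0.433), each being part of that mean. Between pairs of members, r ran from -0.03 for Mrc1 with Marco to 0.967 for Adgre1 with Csf1r. The genes outside the 10 with the most similar pattern, of 15900 genes with a mean of at least 1 CPM, were C1qc (0.992), C1qa (0.985), Cybb (0.972), Folr2 (0.970), Cd300ld (0.969), F13a1 (0.964), Clec4a1 (0.964), C1qb (0.961), Alox5ap (0.959) and C5ar1 (0.949). C1qa, C1qb and C1qc encode the subunits of complement C1q. The 13 points share libraries among the genes and differ in cell makeup, so these values describe the groups.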

How the data were processed

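RNA was sequenced from 39 libraries of gubernaculum and testis, in 13 groups of 3 biological replicates taken from the labels. According to the submitters' notes reads were aligned with HISAT2 to GRCm38, while the counter and annotation are not given in the sources used here. The authors deposited raw read counts and FPKM per gene, in a table of 27 libraries and a table of 12, which were joined on the 21561 Ensembl identifiers that both hold (94.16 to 97.86% of the counts). Columns of the authors' own comparisons were not used.

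Counts were tested with edgeR 4.0.16 (R 4.3.3), using the quasi-likelihood test on the libraries of the groups compared, TMM scaling and the filterByExpr filter (at least 10 counts, total 15), with Benjamini-Hochberg adjustment over all genes tested. Calls required a fold change that reached 2 with an adjusted p below 0.01, and SE was derived from the F statistic. A difference between effects was tested as an interaction. Levels shown are CPM after TMM scaling of all 39 libraries, and values of the deposited FPKM compare genes per length. Alternatives were DESeq2 1.42.0, limma 3.58.1 on log2(FPKM + 1), no filter, library size only, all groups of a tissue in 1 fit, a replicate block, another call rule, scaling to the summed counts of Sertoli cell genes and leaving out each library. The Sertoli cell genes were Sox9, Wt1, Gata4, Dhh, Cldn11, Rhox5, Amh, Fshr, Inha, Gata1, Dmrt1, Nr5a1, Tjp1, Ctsl and Trf. Of these Ctsl had the highest level in P8 testis labelled INSL3-KO (1187 CPM) and in P23 INSL3-KI testis (669.6 CPM). The list did not move as 1 unit. In P8 INSL3-KI against WT testis, Rhox5 (4.01), Gata1 (2.31) and Cldn11 (1.71) were called higher, and Amh (-2.15) and Gata4 (-1.76) lower. In P23 INSL3-KI against WT testis, Amh changed by 3.22 and Ctsl by 0.32. The scaling is therefore no fixed reference, and whether only Sertoli cells express these genes was not tested. The scripts were tested on simulated counts. The members and lists were chosen with earlier results of these data known. All members are named. Of each other list, up to 4 genes are named in a comparison, the 2 called genes with the largest change in each direction, plus defining genes of other cell types. Csf1 and Spi1 in P23 INSL3-KO testis were named for their role after their values were seen. Total counts of 29861447 to 45260372 per library leave Marco near the limit of detection in testis, where 0 to 20 counts were found.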

Additional observations from a re-analysis of the deposited data

Results flagged for a closer look

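The INSL3-KI effect in testis was larger at P40 than at P8 for 6 members by the interaction test of edgeR on the TMM scale, but with Sertoli scaling none of the 6 was called, and the differences were -0.68 for Cd68, -0.28 for Adgre1, -0.033 for Csf1r, -0.11 for Lyz2, -0.75 for Cx3cr1 and 2.86 for Lyve1 (adjusted p from 0.034 to 0.98). By TMM the difference between the log2 fold changes was 1.599 for Cd68 (adjusted p = 0.0094), 2.0 for Adgre1 (adjusted p = 0.002), 2.259 for Csf1r (adjusted p = 0.0022), 2.129 for Lyz2 (adjusted p = 0.0048), 1.595 for Cx3cr1 (adjusted p = 0.0061) and 5.045 for Lyve1 (adjusted p = 0.0024). The INSL3-KI effect at P8 differed between gubernaculum and testis for Mrc1, by -1.529 (adjusted p = 0.0013), with a log2 fold change of -1.20 in gubernaculum and 0.34 in testis.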

How the results depend on the processing

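Of 244 alternative counts of members called, 58 differed from the reported count by more than 1.5 times, and of 709 alternative values of members called in the reported test, 552 kept direction and call, 143 lost the call and 14 changed sign. All 14 came with Sertoli scaling: Cd163 (-0.050), Mrc1 (-0.48) and Cd14 (-0.19) in P23 INSL3-KO against WT testis, Mrc1 (0.030) in P23 INSL3-KI against INSL3-KO testis, and Cd68 (-0.36), Adgre1 (-0.16), Mrc1 (-0.47), Cx3cr1 (-0.46) and Cd14 (-0.63) in P40 INSL3-KI testis, and Cd68 (-0.68), Adgre1 (-0.28), Csf1r (-0.033), Lyz2 (-0.11) and Cx3cr1 (-0.75) for the interaction of age in testis, a fit chosen after seeing the data. Of 1647 alternative values of members not called, 120 changed sign, 20 of 51 with Sertoli scaling. The same scaling gave 3 calls in P23 INSL3-KO, 2 in P23 INSL3-KI against INSL3-KO, 0 in P23 INSL3-KI against WT, 0 in P40 INSL3-KI, 8 in WT testis P40 against P8 and 1 for the interaction of age in testis. By construction this scaling subtracts the change of the Sertoli cell genes from that of every gene.

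Library size as the only scaling, with which the median of all genes lay between -0.70 and 0.70 on the log2 scale, gave 0 in P8 INSL3-KI gubernaculum, 2 in P23 INSL3-KI testis against WT, 2 in WT testis P40 against P8 and 5 in WT gubernaculum against testis. limma gave 0 in P8 INSL3-KI and INSL3-KO gubernaculum, 0 in P23 INSL3-KI testis against WT and 5 in WT gubernaculum against testis. All groups of a tissue in 1 fit gave 0 in P8 INSL3-KI and in INSL3-KO gubernaculum against WT, 1 between them, 2 in P23 INSL3-KI testis against WT and 2 in WT testis P40 against P8. An adjusted p under 0.05 with no fold threshold gave 7 in P8 INSL3-KI and 3 in INSL3-KO gubernaculum, 10 between them, 1 in P8 testis labelled INSL3-KO against WT, 2 in INSL3-KI against it, 4 in P23 INSL3-KI testis against WT and 2 in WT testis P40 against P8. Apart from the Sertoli scaling the cause of these changes was not tested.

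Replicate numbers were not treated as pairs, since in no comparison did all 3 pairs correlate above 0.1. With 3 replicates this rule cannot exclude pairing, and in P23 INSL3-KI against WT gubernaculum the values were -0.12, 0.34 and 0.46. With the replicate block 0 members were called in P8 INSL3-KO gubernaculum and 0 in P23 INSL3-KI testis against WT, and no other count moved by more than 1.5 times.

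Leaving out 1 library gave 1 to 5 calls in P8 INSL3-KI gubernaculum, 0 to 2 in INSL3-KO gubernaculum, 0 to 1 in P8 testis labelled INSL3-KO, 0 to 1 in P23 INSL3-KI testis against WT, 5 to 8 in P23 INSL3-KI against INSL3-KO, 5 to 9 in P40 INSL3-KI, 0 to 1 in WT testis P40 against P8, 2 to 8 in WT gubernaculum against testis, 3 to 7 for the interaction of age in testis and 1 to 3 for that of tissue. Of the 10 genes most like the members, 7 were the same over the groups of the first table alone.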

Other observations

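Mast cell genes moved with the macrophage markers in INSL3-KO testis at P23, where 3 of 5 rose (median 2.62) and 31.1% of all genes were called higher. They were led by Mcpt4 (5.0) and Tpsb2 (3.77), which encode mast cell proteases. In P8 INSL3-KO gubernaculum, by contrast, 5 of 6 fell against WT across the tables (median -2.02), where 15.2% of all genes were called lower. They were led by Tpsb2 (-2.94) and Mcpt4 (-2.13).

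T cell genes were higher in P8 INSL3-KO than in WT gubernaculum, across the tables, with 4 of 5 called, led by Cd3d (7.09), a subunit of the T cell receptor complex. The share of all genes called higher is not given here. These INSL3-KO libraries also held the hepatocyte genes described above, whose part in this result was not tested.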
